A study of Mus musculus with 4 samples.

Results

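The germline miRNAs miR-743a, miR-743b, miR-742, miR-883a, miR-883b, miR-471, miR-470, miR-201 and miR-547 were compared between WT R1 mouse ESCs and R1 ESCs without DNMT activity (TKO). The members were chosen by name, as every probe for 1 of these 9 miRNAs with any arm, which gave 12 of the 566 probes for mouse miRNAs and of the 599 probes in all. The list covers the rest of an X-linked miRNA cluster whose rise in TKO cells was already known when it was drawn up, so every difference between TKO and WT cells below is a description, and the question asked of it is which members did not follow that rise.

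ESCs are cultured cells from the early embryo that can form all tissues, and DNMTs are the enzymes that methylate cytosines of the DNA. R1 is an established mouse ESC line, labelled wild type. In the TKO line, also of R1 cells and labelled DMNTs TKO, the 3 DNMTs DNMT1, DNMT3a and DNMT3b are knocked out. The labels give the same culture for both lines, in serum and leukemia inhibitory factor on gelatin, and state 4 days of differentiation before RNA isolation for all samples. Total RNA of 2 biological replicates of each genotype was measured with the NanoString nCounter assay, which counts barcoded probes bound to mature miRNAs. The genotypes are 1 line each, so loss of the DNMTs and any other difference between the lines cannot be told apart. The mRNAs of the DNMTs are not among the probes, so the knockout was not checked with these data.

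The miRNAs of this cluster lie between the genes Slitrk2 and Fmr1 and are known from testis, where they are found in cells of the male germ line. A miRNA hairpin is cut from a longer transcript by Drosha and then by Dicer, which leaves a 5p and a 3p strand, and usually 1 of the strands is kept while the other is degraded. The kept strand guides repression of mRNAs that pair with its seed, bases 2 to 8. DNA methylation is known to keep many germline genes silent in other cells.

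All 9 precursors were matched to RefSeq (GRCm38.p6), lie on the minus strand of chromosome X, and fall within the span of no other annotated gene. The first 7 lie within 37.2 kb, from mir-743a at 66776757 to 66776818 over mir-743b (66777256 to 66777332), mir-742 (66780373 to 66780437), mir-883a (66780758 to 66780833), mir-883b (66789890 to 66789967) and mir-471 (66792595 to 66792661) to mir-470 (66813951 to 66814025). The hairpins of mir-742 and mir-883a are only 320 bases apart. A gap of 1174070 bases separates mir-470 from mir-201 (67988096 to 67988161), which is followed after 212 bases by mir-547 (67988374 to 67988451). Slitrk2 ends at 66661402 and Fmr1 begins at 68678536.

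The sequences below are mature miRNAs from RefSeq, written 5′ to 3′ with the seed in capitals. They are a choice of strands. The first 4 are 3p strands of hairpins with a probe that was called higher in TKO cells. The last 3 had probes that were not called: the other strand of mir-743b, and the 3p strands of mir-883a and mir-883b. miR-470 was also called higher, but its strands are not shown. The 5p strands of mir-743a, mir-742 and mir-471 are not shown either, and their seeds differ from those of the 3p strands. The probe names give no arm for miR-743a, miR-742, miR-471, miR-470, miR-201 and miR-547, so which strand those probes read is not settled here.
miR-743a-3p: gAAAGACAccaagcugaguaga
miR-743b-3p: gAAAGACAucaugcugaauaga
miR-742-3p: gAAAGCCAccaugcuggguaaa
miR-471-3p: uGAAAGGUgccauacuauguau
miR-743b-5p: uGUUCAGAcugguguccauca
miR-883a-3p: uAACUGCAacagcucucaguau
miR-883b-3p: uAACUGCAacaucucucaguau

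The seed of miR-743a-3p and miR-743b-3p was the same, and no other mouse miRNA in the RefSeq table had it. Counted from the 5′ end, miR-743a-3p and miR-743b-3p differ by C9U, A12U and G18A. miR-742-3p has a seed of its own and differs from miR-743a-3p at 4 bases. miR-883a-3p and miR-883b-3p also share a seed found in no other mouse miRNA of the table, and differ by G12U alone. Probes for such close pairs may bind each other's target, which was not tested.

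The 5 members that limma called come first. For miR-743b-3p the WT replicates gave 19.3 and 18.45 normalized counts, and the TKO replicates gave 152 and 222.98. Both TKO values lay above both WT values, and the lower TKO value was 7.90 times the higher WT value. The difference of TKO minus WT was 3.22 in log2 units, taken after adding 1 to each normalized count (SE 0.23, n = 2 per genotype). miR-743a, its neighbour with the same 3p seed, was measured at 20.3 and 25.2 normalized counts in WT cells against 145.28 and 162 in TKO cells. The TKO replicates lay close together and far above WT, with a log2 difference of 2.71 (SE 0.18). miR-742 was at 44.95 and 31.1 normalized counts in WT cells against 91.9 and 89.0 in TKO cells. Its values did not overlap either, and the log2 difference was 1.25 (SE 0.23).

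miR-471 was at 11.8 and 17.5 normalized counts in WT cells against 141 and 86.8 in TKO cells, a log2 difference of 2.86 (SE 0.33). Its TKO replicates lay wide apart, the first at 1.63 times the second, but both were far above WT. miR-470 was at 15.0 and 21.4 normalized counts in WT cells against 96.9 and 71.8 in TKO cells, a log2 difference of 2.16 (SE 0.26). For both miRNAs the first TKO replicate was the higher one, whereas for miR-743a and miR-743b-3p it was the second, so the TKO replicates did not differ by a common factor over the cluster.

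limma with Benjamini-Hochberg adjustment over the 566 mouse probes called these 5 of the 12 members higher in TKO cells (miR-743a, miR-743b-3p, miR-742, miR-471 and miR-470), where 4.24% of all mouse probes were called higher. The other 7 were not called in either direction, and no member was called lower, where 4.24% of all mouse probes were called lower and 8.48% in either direction. The mean was higher in TKO cells for 10 of the 12 members and for 38.3% of all mouse probes. The call of miR-742 was the least firm: its limma adjusted p was 0.0454, 0.0503 without a pseudocount and 0.186 with the viral mean subtracted, and it ranged from 0.000152 to 0.226 over the alternatives. miR-471 was not called with the viral mean subtracted (limma adjusted p 0.0520, range 3.02e-20 to 0.121). With 1 sample left out limma called 2 members and 14 of all 566 mouse probes without WT replicate 1, 1 member and 9 probes without WT replicate 2, and 0 members and 0 probes without TKO replicate 1 or TKO replicate 2, where 6 and 5 members and 114 and 101 of all probes had an unadjusted p under 0.05. Both TKO values lay above both WT values for 6 of the 12 (17.3% of all mouse probes) and below them for 1 (36% of all). The median log2 difference was 0.61 over the members and -0.12 over all mouse probes. With 2 samples against 2, no permutation can give a two-sided p below 0.33, so none was used.

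**Figure D1:**
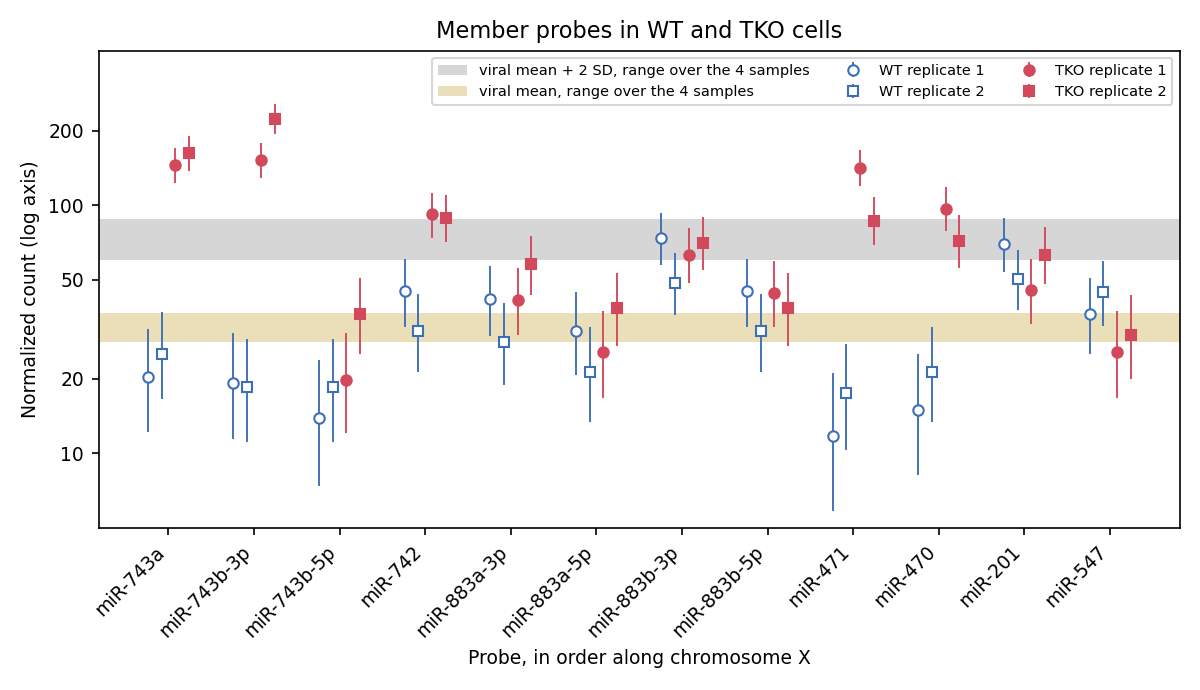
Normalized counts (log axis) of the 12 member probes in the 2 WT (open) and 2 TKO (filled) replicates, with bars for the exact 95% Poisson interval of the count, which covers counting error only; the bands give the range over the 4 samples of the mean of the 33 viral probes and of that mean plus 2 SD. TKO values of miR-743a, miR-743b-3p, miR-742, miR-471 and miR-470 stand above all their WT values, and no WT value passes the mean plus 2 SD of its own sample.

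The assay also holds 33 probes for viral miRNAs, which have no target in uninfected mouse cells and were used as background. Their mean in normalized counts was 36.7 and 28.7 for the WT replicates, highest in the first, and 28.2 and 32.5 for the TKO replicates. Their mean plus 2 SD was 88.1 and 64.4 for WT, and 60.4 and 71.0 for TKO. No member passed this threshold in a WT sample. In both TKO samples it was passed by 5 of the 12, the same 5 that limma called (3.89% of all mouse probes passed it in both TKO samples and in neither WT sample). Of these, miR-470 was below the highest viral probe in TKO replicate 2, at 71.8 against 75.0 normalized counts.

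Because the WT levels were at background, the fold of the 5 miRNAs has only a lower bound, which depends on the background level chosen. With each WT value set to the threshold of its sample, the level in TKO cells was at least 2.44-fold higher for miR-743b-3p, at least 2.04-fold for miR-743a and at least 1.47-fold for miR-471. The bounds were 1.20-fold for miR-742 and 1.11-fold for miR-470. With the highest viral probe of each WT sample in place of the threshold, the bounds fell to 2.20-fold for miR-743b-3p and 1.83-fold for miR-743a. They were 1.33-fold for miR-471 and 1.08-fold for miR-742, and miR-470 had no bound above 1. The order of the 5 rises by size is therefore not resolved.

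**Figure D2:**
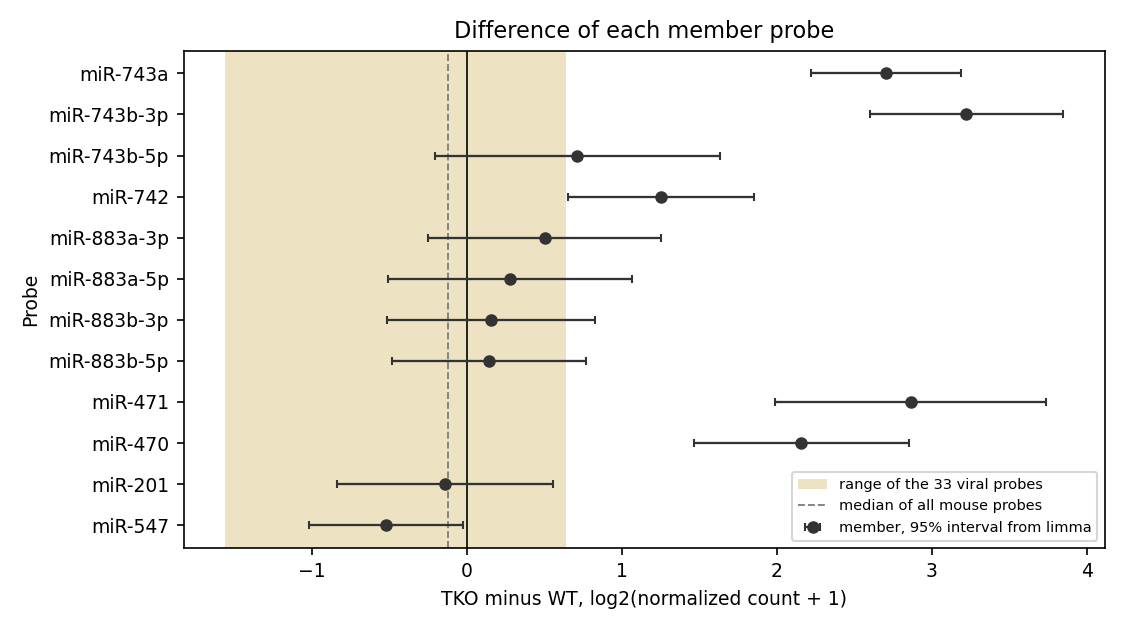
Difference of TKO minus WT on the log2(normalized count + 1) scale for each member probe, with the 95% interval from limma (n = 2 per genotype), the range of the 33 viral probes (shaded) and the median of all mouse probes (dashed). The 5 called members lie to the right of every viral probe, and 6 of the other 7 lie within the viral range.

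Of the 7 probes that were not called, miR-743b-5p alone had both TKO values above both WT values. It was at 13.9 and 18.45 normalized counts in WT cells against 19.8 and 36.45 in TKO cells, all below the viral threshold. The counts behind these values were 13 and 19 for WT, and 20 and 34 for TKO, so that the exact 95% Poisson intervals overlapped between TKO replicate 1 (12.1 to 30.5 normalized counts) and both WT replicates (7.41 to 23.8 and 11.1 to 28.8). The log2 difference was 0.71, with a 95% interval of -0.21 to 1.63, and the highest difference of a viral probe was 0.64.

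The 3p probe of mir-743b passed the threshold in both TKO samples and the 5p probe in no sample. The 5p probe lay between 0.38 and 1.12 times the viral mean, and the 3p probe was at background in WT cells, so whether the arms of this hairpin changed to a different extent cannot be told from these probes.

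None of the 4 probes for miR-883a and miR-883b followed the rise, although their hairpins lie between those of miR-742 and miR-471. miR-883a-3p was at 41.7 and 28.2 normalized counts in WT cells against 41.5 and 57.9 in TKO cells, and miR-883a-5p at 31.0 and 21.4 against 25.7 and 38.6. The WT and TKO values of both arms overlapped. The log2 differences were 0.50 (95% interval -0.25 to 1.26) and 0.28 (-0.51 to 1.07).

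miR-883b-3p was at 73.8 and 48.6 normalized counts in WT cells against 63.2 and 70.8 in TKO cells, and miR-883b-5p at 44.95 and 31.1 against 44.5 and 38.6. Here too the genotypes overlapped in both arms. The log2 differences were 0.16 (95% interval -0.51 to 0.83) and 0.14 (-0.48 to 0.77). The 4 probes lay at or near background, so these intervals describe the probe signals and do not limit the change of the miRNAs themselves.

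miR-201 and miR-547, beyond the gap of the cluster, did not follow the rise either. miR-201 was at 69.6 and 50.5 normalized counts in WT cells against 45.5 and 63.2 in TKO cells, with overlapping genotypes and a log2 difference of -0.14 (95% interval -0.84 to 0.55). miR-547 was at 36.4 and 44.7 normalized counts in WT cells against 25.7 and 30.0 in TKO cells. It was the only member with both TKO values below both WT values, and its log2 difference was -0.52 (SE 0.19, 95% interval -1.02 to -0.023), which limma did not call.

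All 7 probes without a call stayed near the background in every sample. Divided by the mean of the viral probes of the same sample, miR-201 was at 1.89 and 1.76 for WT against 1.61 and 1.95 for TKO, and miR-883b-3p at 2.01 and 1.69 against 2.25 and 2.18. These were the highest such ratios of the 7 probes, and miR-883b-3p passed the mean plus 2 SD in 1 sample, TKO replicate 1. On the same scale miR-743a went from 0.55 and 0.88 for WT to 5.16 and 4.99 for TKO. A change of these 7 miRNAs below the level of the background was not detectable with these probes.

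Other probes of the same cluster were given by a list of 13 probes for miR-465a, miR-465b, miR-465c, miR-741, miR-463, miR-880, miR-878, miR-881, miR-871 and miR-509. limma called 10 of them higher in TKO cells (4.24% of all mouse probes), and all 13 had a higher mean (38.3% of all). The 3 without a call were the probes of miR-463, with a log2 difference of 0.15, and of both arms of miR-509 (1.04 and 0.26). miR-463 was at 68.5 and 56.3 normalized counts for WT and 64.2 and 74.0 for TKO. It passed the viral threshold in both TKO samples and in neither WT sample although its genotypes overlapped, so passing in TKO alone does not show a rise. By place, 15 of the 21 probes within the first 62.3 kb were called, of which 5 were among the 10 members there and 10 among the 11 others. Beyond the gap none of the 4 probes was called, for miR-201, miR-547 and the arms of miR-509. With 4.24% of all mouse probes called higher, no call among 4 probes is near the share over all. These 4 probes were also below the viral threshold in every sample, so a rise below that level could not be seen. Within the first 62.3 kb, the called members lay on both sides of the miR-883 hairpins that were not called.

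**Figure D3:**
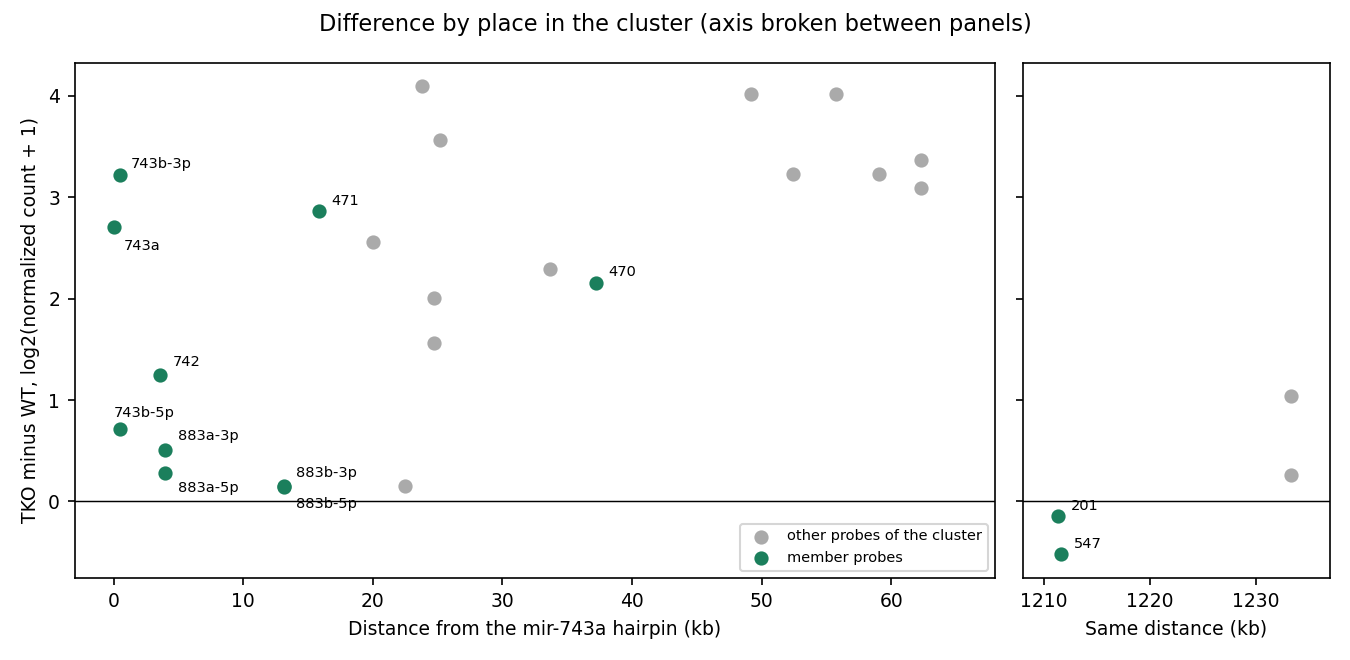
Difference of TKO minus WT on the log2(normalized count + 1) scale against the distance of the hairpin from that of mir-743a in kb, for member probes (green, named) and other probes of the cluster (grey; a probe whose miRNA has 2 hairpins is drawn at each). The axis is broken between the panels; the 4 probes in the right panel lie at or below 1.04, and the probes of miR-883a and miR-883b lie between 0.14 and 0.50 while the called probes on either side lie at 1.25 or above.

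The precursors of the members were then set beside features that were not used to choose them. The letters CG, the dinucleotide that DNMTs methylate, occur in 2 of the 9 hairpins, those of mir-742 and mir-471, each once, and in 66.5% of the 1005 mouse hairpins in the RefSeq table. Both miRNAs rose, and so did miR-743a, miR-743b-3p and miR-470, whose hairpins hold none. Only the hairpins were searched, not the sequence around them, and the methylation of these loci was not tested. The letters UGAAAG, searched on the strand of the miRNA only, occur in the hairpins of mir-743a, mir-743b, mir-742 and mir-471 and in 2.59% of all mouse hairpins. These 4 hairpins each had a called probe, whereas those of mir-883a, mir-883b, mir-201 and mir-547, without a call, and mir-470, with one, lack it. Such matches are a description of the letters. They were chosen after the values were seen, so their match with the calls lends no support. miR-743a-3p, miR-743b-3p and miR-742-3p are also close in sequence, so the hairpins with UGAAAG are not independent cases.

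The study sorted precursors by DNA methylation at their borders in WT ESCs. Its flat group holds mir-743a and mir-470, which rose, and mir-547, which was not called. Its depleted group holds mir-743b, with a called 3p arm, and mir-883b and mir-201, without calls. Of the precursors it lists as methylated, mir-471 (upstream) rose and mir-883a (bilateral) was not called, and mir-742 is in none of its groups. Members with and without a call thus occurred together in the flat and in the depleted group, whereas mir-471 and mir-883a were each alone in theirs. The probes without a call were near background, so a missing call does not show that the miRNA did not change.

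The labelled cell type was checked with marker miRNAs. The 11 probes of the miR-290 cluster, defining for mouse ESCs, summed to 338120 and 332117 normalized counts for WT and to 271498 and 295039 for TKO. Averaged over the 4 samples, 8 of these probes passed the viral mean plus 2 SD of such averages (69.2 normalized counts). The probes of miR-290-5p and both arms of miR-291b did not. The 5 probes for miR-302a to miR-302d and miR-367, known from primed or differentiating ESCs, had higher sums in TKO cells. The sums were 373 and 349 for WT and 1649 and 2021 for TKO. Of these 5 probes, 3 passed the same threshold, whereas miR-302b and miR-302c did not. Of 6 probes for other testis-enriched miRNAs (miR-34b, miR-34c and miR-449), only miR-34c was above background, at 420 and 629 normalized counts for WT and 840 and 747 for TKO. Of the other 5, the mean was higher in TKO cells for miR-34b-3p, lower for miR-34b-5p, miR-449a and miR-449b, and level for miR-449c. Of the 4 neural probes, miR-124 was lower in TKO cells, at 499.8 and 457 normalized counts for WT and 132 and 134 for TKO, whereas the values of miR-128 and miR-9 overlapped and miR-137, at background, went from 21.4 and 21.4 to 25.7 and 30.0. The 4 muscle probes and the liver probe were at background in both genotypes. The 5 fibroblast probes, of which 3 passed the same threshold, summed to 525 and 481 for WT and 423 and 422 for TKO. The 2 endothelial probes summed to 378 and 408 for WT and 449.7 and 468 for TKO. The 6 blood probes, of which 3 passed the threshold, summed to 1397 and 1294 for WT and 1462 and 1639 for TKO. Among them miR-142-3p was higher in TKO cells (807 and 761.5 against 1159 and 1278) and miR-150 lower (429 and 387.6 against 167 and 193). The part of these cell types or states in the rise of the members was not tested, and in bulk RNA more cells of a type and more RNA per cell cannot be told apart.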

How the data were processed

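NanoString nCounter counts of mature miRNAs came from 2 WT and 2 TKO samples. Normalization was done by the authors in the nSolver Analysis software, and the deposited values are on the log2 scale; the version, the probes that set the scaling and the handling of background are not given in the sources used here. Turned back to the linear scale, 100% of the values of each sample were whole multiples of 1 factor (0.971 to 1.07) within 0.05 counts, and the recovered counts summed to between 511661 and 613666 per sample. Intervals on single values are exact 95% Poisson intervals of these counts and cover counting error only. A pseudocount of 1 normalized count was added and log2 was taken, which understates the change of low probes. TKO was compared with WT in 1 fit over all 566 mouse probes (lmFit and eBayes of limma) with Benjamini-Hochberg adjustment at 0.05. Background was set in each sample from the 33 viral probes, at their mean plus 2 SD.

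The members and lists were chosen with earlier results of these data known. All member probes are named, together with marker lists and the other probes of the cluster. Groups were taken from the sample titles. The replicates share numbers, and the deviations of same-numbered samples from their group means correlated at -0.094 over the 566 probes, so the numbers were not taken to pair the samples. Alternatives covered the pseudocount, scaling, background, filters, single replicates, a replicate block and voom on the recovered counts. Positions and sequences are from RefSeq (GRCm38.p6). The tools were limma 3.58.1 in R 4.3.3, and Python 3.11.15 with scipy 1.17.1, pandas 2.3.3, numpy 2.4.6 and matplotlib 3.10.9.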

Additional observations from a re-analysis of the deposited data

How the results depend on the processing

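limma called 5 of the 12 members, and 48 of all 566 mouse probes in either direction. It called 3 members (miR-743a, miR-743b-3p and miR-470) and 32 of 566 probes after subtraction of the viral mean with a floor of 1. With the replicate block it called 4 members and 30 of 566 probes, and without a pseudocount 4 members and 43 of 566 probes; both lost miR-742 (limma adjusted p 0.0724 and 0.0503). The filter on the viral threshold left 2 members, miR-743a and miR-743b-3p, which passed it only through their TKO values, so that their direction (2 of 2 higher) is fixed by the filter; both were called, beside 74 of 238 probes. limma called 5 members under scaling by the sum (44 of 566 probes), by the median (57 of 566) and by the viral mean (57 of 566). It also called 5 with a pseudocount of 16 (62 of 566), a filter at 10 normalized counts (48 of 542) and voom (85 of 566). With 1 sample left out it called between 0 and 2: 2 without WT replicate 1 (miR-743a and miR-743b-3p), 1 without WT replicate 2 (miR-743a) and 0 without TKO replicate 1 or TKO replicate 2, where 6 and 5 members had an unadjusted p under 0.05 and limma called 0 of all 566 mouse probes (114 and 101 unadjusted). A fit of 3 samples has few degrees of freedom, and in these fits the differences lay between 2.95 and 3.496 for miR-743b-3p, 2.56 and 2.86 for miR-743a, 2.52 and 3.21 for miR-471, 1.92 and 2.40 for miR-470 and 0.99 and 1.51 for miR-742. Each of the 5 stayed above 0 under every alternative that kept it.

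The median difference of 0.61 over the members was 0.40 with a pseudocount of 16, 0.74 when scaled by the sum over mouse probes, 2.17 with the viral mean subtracted and 2.96 over the 2 members left by the viral filter, which keeps members that are high in TKO cells. Leaving out 1 sample, it lay between 0.28 (without TKO replicate 2) and 0.94 (without TKO replicate 1). Scaling by the sum moved the median of all mouse probes from -0.12 to 0.0089. After subtraction, members without a call reached the floor in some samples, and miR-883a-3p had a difference of 3.04 that was not called. Leaving out 1 sample, the sign of 4 members without a call was not settled: miR-201 lay between -0.38 and 0.092 (0.085 without WT replicate 1), miR-883b-3p between -0.14 and 0.45, miR-883b-5p between -0.12 and 0.40 and miR-883a-5p between -0.0037 and 0.56. With the highest viral probe as the threshold, chosen after seeing the data, 4 of the 5 passed in both TKO samples.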
